A study of Mus musculus with 2 samples.

Results

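Klf2, S1pr1, S1pr4 and Cd69 are the genes described here, taken by their symbols from a table of 22032 genes, so that the set holds 4 of 22032. All of them were found and measured. They were read in single double-negative 1 (DN1) thymus cells, the earliest CD4- CD8- stage, sorted from embryos of 5x polychromILC mice, a strain whose reporters for genes of lymphoid development are carried by every group here. There were 2 libraries, labelled E15.5_DN1 and E19.5_DN1 after the day of gestation, each without a replicate, and the labels describe a lysis to nuclei before 10x Chromium 3' v3 preparation. The barcodes of the pooled table end in suffix 1 or suffix 2, and 0 columns carry a label that ties a suffix to a library. The suffixes are therefore given by number, all barcodes form 1 sample, and no test across samples was possible.

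Lymphocytes leave the thymus by following sphingosine-1-phosphate (S1P), a lipid that is abundant in blood and lymph and scarce within tissue. S1PR1 is the receptor that senses it on lymphocytes, and the transcription factor KLF2 switches on the S1pr1 gene, itself under control of FOXO1. CD69, a membrane protein of recently activated and of tissue-resident lymphocytes, binds S1PR1 and removes it from the cell surface, so that Klf2 and S1pr1 stand for exit and Cd69 for retention. S1PR4 is a further S1P receptor found mainly on blood-forming and lymphoid cells.

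On GRCm38, in the GENCODE annotation, Klf2 (ENSMUSG00000055148.7) lies at chr8:72319033-72321656 on the plus strand and S1pr1 (ENSMUSG00000045092.8) at chr3:115710433-115715072 on the minus strand. S1pr4 (ENSMUSG00000044199.6) lies at chr10:81497747-81500132 and Cd69 (ENSMUSG00000030156.5) at chr6:129267325-129275436, both on the minus strand. Each is protein-coding and overlaps no other annotated gene. Promoter sequence was found in RefSeq (GRCm38.p6) for 2 of the 4 members, Klf2 and S1pr4, and it is shown because both genes differed between the gates below. Each line gives the bases from 250 to 30 upstream of the RefSeq start, which is chr8:72318812-72319032 on the plus strand for Klf2 and chr10:81500167-81500387 on the minus strand for S1pr4, with motif matches in capitals.
Klf2: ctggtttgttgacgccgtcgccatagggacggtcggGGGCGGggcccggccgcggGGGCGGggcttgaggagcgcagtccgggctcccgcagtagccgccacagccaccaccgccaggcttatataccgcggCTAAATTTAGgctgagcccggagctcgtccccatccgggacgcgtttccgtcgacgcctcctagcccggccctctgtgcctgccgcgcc
S1pr4: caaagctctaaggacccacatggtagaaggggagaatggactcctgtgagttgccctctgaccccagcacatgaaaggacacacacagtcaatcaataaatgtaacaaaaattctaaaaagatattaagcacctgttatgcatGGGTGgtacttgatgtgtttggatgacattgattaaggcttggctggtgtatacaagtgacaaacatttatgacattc
The motifs searched, on both strands, were a MEF2 motif (CTAAATTTAG, which is its own reverse complement), the GC box (GGGCGG) and the CACCC box (CACCC), a sequence bound by Krüppel-like factors. No matches overlapped. The Klf2 window held 1 MEF2 motif, 109 to 118 bases upstream of the start, and 2 GC boxes. The S1pr4 window held 1 CACCC box, on the opposite strand, and neither of the other motifs. Of 32851 windows of the same length, 12 held the MEF2 motif (0.0365%), 9413 the GC box (28.7%) and 15757 the CACCC box (48.0%). The MEF2 motif was searched as a single exact sequence, longer than the other motifs. Its low share therefore does not show how rare MEF2 sites are among these promoters. G and C made up 71.5% of the Klf2 window and 41.2% of the S1pr4 window.

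Barcodes were put in gates by raw counts of unique molecular identifiers (UMIs), each UMI standing for 1 captured transcript. A barcode needed at least 2 UMIs of both genes of a gate and to pass no other gate. Icos and Rora gave an ILC2 gate (type 2 innate lymphoid cells) of 1011 barcodes, Xcl1 and Nkg7 an NK/ILC1 gate of 1432, and Cd3d and Sox13 a gamma-delta T gate of 117. Spi1 and Bcl11a gave a progenitor gate of 879. The ILC2 gate was split at 5 UMIs of Ly6a, which encodes the surface protein Sca-1, into 496 Ly6a-high and 515 Ly6a-low barcodes. A further 1907 barcodes fell in no gate and 66 in several. Of the fixed marker genes, 10 of 11 for ILC2, 10 of 11 for NK/ILC1 and 8 of 8 for progenitors were highest in their own gate. For gamma-delta T cells this held for 5 of 8, and the same gate also led for 5 of 6 markers of T commitment and 4 of 5 of alpha-beta thymocytes, so it is called here by its gate genes' name only. The NK/ILC1 gate also led for 7 of 8 mast cell markers and 5 of 9 of thymic epithelium. The mast cell gene Cma1 was at 72.3 CPM there under suffix 1 and 0.482 CPM under suffix 2. The progenitor gate led for 6 of 8 myeloid and 6 of 8 endothelial markers, and the ILC2 gate for 4 of 7 erythroid markers. Barcodes with exactly 2 UMIs of the scarcer gate gene and barcodes left out with 1 had 470 and 457 CPM of Klf2 around the ILC2 boundary, 257 and 209 CPM around the NK/ILC1 boundary, 253 and 200 CPM around the gamma-delta T boundary and 52.4 and 46.4 CPM around the progenitor boundary. The gaps were wider for S1pr4 at the NK/ILC1 boundary, with 78.8 and 48.2 CPM, and for Cd69 at the gamma-delta T boundary, with 74.8 and 51.4 CPM.

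The 5412 barcodes kept held 98990160 UMIs, between 713 and 113167 each. The median was 14841 UMIs in the 2137 barcodes of suffix 1 and 13688 in the 3275 of suffix 2. Progenitor-gate barcodes were the deepest, with a median of 33186 UMIs, against 13645 in the ILC2 gate, 11411.5 in the NK/ILC1 gate and 15740 in the gamma-delta T gate. Levels are therefore given as counts per 1000000 UMIs of the gate (CPM). Suffix 2 supplied 78.9% of the ILC2 gate, 34.9% of the NK/ILC1 gate, 85.5% of the gamma-delta T gate and 67.7% of the progenitor gate. The same 25 barcode sequences occur under both suffixes. Of these barcodes, 19 were in gates, 13 of them in the progenitor gate. Without all barcodes of shared sequence, the log2 ratios of the ILC2 gate over the progenitor gate given next were 2.76 for Klf2, 3.13 for S1pr1, 2.01 for S1pr4 and 1.66 for Cd69. Intervals are 95% and cover counting error only, not variation between barcodes, animals or libraries. For example, 1 barcode held 54 of the 217 Cd69 UMIs of the gamma-delta T gate.

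All 4 egress genes were higher in the ILC2 gate than in the progenitor gate. Klf2 stood at 434 CPM (424 to 444) in the ILC2 gate and 62.9 CPM in the progenitor gate, 6.90-fold higher. S1pr1 stood at 46.7 CPM in the ILC2 gate and 5.34 CPM in the progenitor gate, 8.75-fold higher. The log2 ratios were 2.79 for Klf2 (2.71 to 2.86) and 3.13 for S1pr1 (2.88 to 3.38), so that S1pr1, the KLF2 target, had a ratio at least as large as that of Klf2. S1pr4 stood at 93.1 CPM in the ILC2 gate and 22.6 CPM in the progenitor gate, a log2 ratio of 2.04 (1.91 to 2.17). Cd69, whose protein opposes S1PR1, was also higher, at 220 CPM in the ILC2 gate and 68.6 CPM in the progenitor gate, a log2 ratio of 1.68 (1.60 to 1.76). Counting a 2-fold difference, 4 of 4 members were higher, while 13.6% of all 11709 genes with at least 20 UMIs were 2-fold higher and 16.6% were 2-fold lower. The median gene had a log2 ratio of -0.11.

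The ILC2 result was present under each suffix, with a smaller size under suffix 1. Under suffix 1, Klf2 was at 159 CPM in the ILC2 gate and 45.6 CPM in the progenitor gate (log2 ratio 1.81), and S1pr1 was at 21.3 and 6.21 CPM (1.78). Under suffix 2, Klf2 was at 539 CPM in the ILC2 gate and 71.3 CPM in the progenitor gate (2.92), and S1pr1 was at 56.4 and 4.92 CPM (3.52). S1pr4 and Cd69 were likewise more than 2-fold higher under each suffix, where 11.2% of genes were 2-fold higher under suffix 1 and 13.2% under suffix 2. Without scaling to the total, the differences were smaller. As mean UMIs per barcode, Klf2 was at 6.58 in the ILC2 gate and 2.20 in the progenitor gate, and S1pr1 at 0.708 and 0.187. On that scale S1pr4 and Cd69 kept their direction but no longer reached 2-fold, with log2 ratios of 0.84 and 0.48, and the median gene stood at -1.32.

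**Figure D1:**
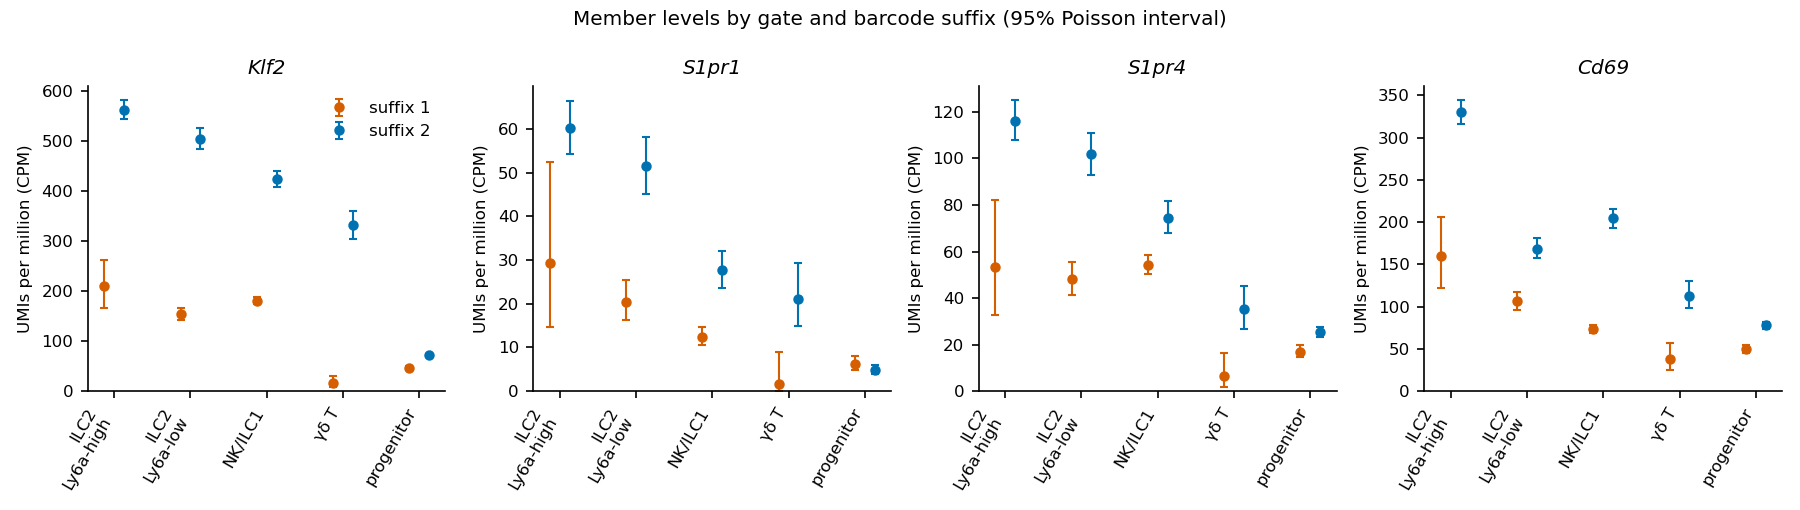
Level of each member (CPM, vertical axis) by gate, with the ILC2 gate split by Ly6a, for suffix 1 (orange) and suffix 2 (blue); bars are 95% Poisson intervals of the summed counts. Outside the progenitor gate every blue point lies above its orange partner, and for S1pr1 in the progenitor gate the points are 6.21 and 4.92 CPM.

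The share of barcodes with a UMI was compared after every barcode had been thinned to 5000 UMIs, which left out 11 ILC2-gate, 20 NK/ILC1-gate and 1 progenitor-gate barcodes. Klf2 was then found in 70.7% of ILC2-gate barcodes (67.8 to 73.5), 55.9% of the NK/ILC1 gate, 51.3% of the gamma-delta T gate and 22.1% of the progenitor gate. S1pr1 was found in 23.0%, 8.07%, 7.69% and 2.62% of the same gates, so both genes kept the order of their CPM. S1pr4 was found in 36.8%, 26.3%, 8.55% and 11.7%, and Cd69 in 45.9%, 29.3%, 23.1% and 23.9%, with the gamma-delta T gate below the progenitor gate in both, the reverse of their CPM, and overlapping intervals. Before thinning, Klf2 had been found in 85.2% of ILC2-gate and 57.9% of progenitor-gate barcodes, at median depths of 13645 and 33186 UMIs. Cxcr6, a chemokine receptor gene at 456 CPM in the ILC2 gate, was found in 0.456% of thinned progenitor barcodes (0.124 to 1.16). The progenitor shares of all 4 members lay above that of Cxcr6, with an interval of 1.67 to 3.90 for S1pr1. Such off-gate shares varied by gene and gate. Cd34, at 139 CPM in the progenitor gate, was found in 0.6% of thinned ILC2, 6.3% of NK/ILC1 and 3.42% of gamma-delta T barcodes. The part of free RNA in the progenitor shares was not tested.

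In the NK/ILC1 gate, Klf2, S1pr1 and S1pr4 were at least 2-fold higher than in the progenitor gate, and Cd69 was higher by less. Klf2 stood at 263 CPM in the NK/ILC1 gate and 62.9 CPM in the progenitor gate, a log2 ratio of 2.07 (1.99 to 2.14). S1pr1 stood at 17.6 and 5.34 CPM (1.72) and S1pr4 at 61.2 and 22.6 CPM (1.44). Cd69 stood at 118 CPM in the NK/ILC1 gate and 68.6 CPM in the progenitor gate (0.78). Thus 3 of 4 members passed 2-fold, while 11.0% of 11700 genes were 2-fold higher and 18.4% were 2-fold lower. As UMIs per barcode the ratio kept its direction only for Klf2 (0.62) and S1pr1 (0.27). S1pr4 came to -0.01 and Cd69 turned to -0.66 on that scale, beside a median gene at -1.70. By CPM, 3 of 4 passed within suffix 1, where 9.11% of genes were 2-fold higher, and 4 of 4 within suffix 2, where 13.6% were. Within suffix 2 the Cd69 ratio of CPM was larger, at 1.40, with 205 CPM in the NK/ILC1 gate and 77.7 CPM in the progenitor gate.

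Set against the ILC2 gate, the NK/ILC1 gate differed most in S1pr1. S1pr1 was 2.66-fold lower in the NK/ILC1 gate (log2 ratio -1.41, -1.60 to -1.22), and it was lower under suffix 1 (-0.77) and suffix 2 (-1.03) alike. It was the only 1 of 4 members to pass 2-fold, where 10.2% of genes were 2-fold lower. Klf2 had a pooled log2 ratio of -0.72, but by CPM it was lower only under suffix 2 (-0.35). Under suffix 1 it was at 181 CPM in the NK/ILC1 gate and 159 CPM in the ILC2 gate, a ratio of 0.18 (0.06 to 0.31). S1pr4 was at -0.56 under suffix 2 and 0.17 (-0.06 to 0.40) under suffix 1. Cd69 was lower in the NK/ILC1 gate under both, at -0.59 under suffix 1 and -0.35 under suffix 2. Counted per barcode, all 4 were lower in the NK/ILC1 gate under each suffix, with Klf2 at -0.42 and S1pr4 at -0.44 under suffix 1, and Cd69 passed 2-fold in the pool as well (-1.14).

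The gamma-delta T gate had high Klf2 and S1pr1 without high S1pr4 or Cd69, by values that came from suffix 2. Klf2 stood at 247 CPM in the gamma-delta T gate and 62.9 CPM in the progenitor gate, a log2 ratio of 1.97 (1.84 to 2.11), and S1pr1 at 15.9 and 5.34 CPM, a ratio of 1.57 (1.02 to 2.09). S1pr4 stood at 27.5 and 22.6 CPM (0.28, -0.11 to 0.65) and Cd69 at 93.2 and 68.6 CPM (0.44). As UMIs per barcode S1pr4 and Cd69 turned to -0.53 and -0.37. So 2 of 4 members passed 2-fold, where 9.28% of 11234 genes were 2-fold higher. Under suffix 1 the gate held 17 barcodes, and all 4 members had lower CPM there than in the progenitor gate, with 16.0 CPM of Klf2 against 45.6 CPM. Against the ILC2 gate, the gamma-delta T gate was more than 2-fold lower in 3 members, S1pr1 (-1.56), S1pr4 (-1.76) and Cd69 (-1.24), where 10.2% of genes were 2-fold lower, and Klf2 stood at -0.81. Per barcode Cd69 stood at -0.85 and no longer passed.

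**Figure D2:**
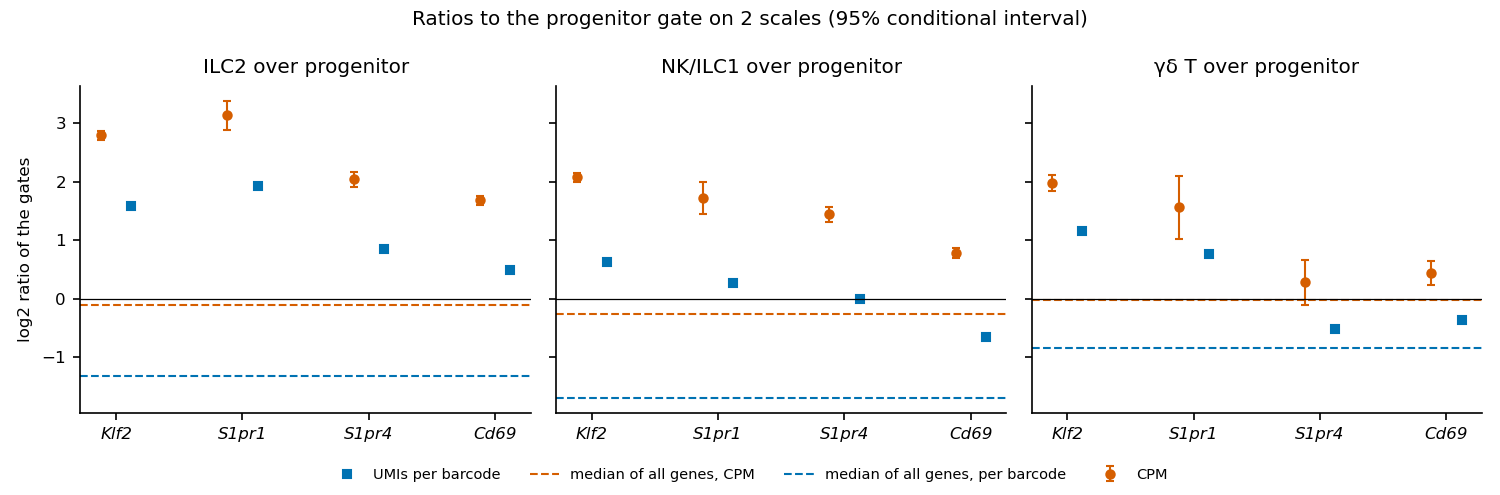
log2 ratio of each member in the ILC2, NK/ILC1 and gamma-delta T gates over the progenitor gate, as CPM (orange circles with 95% conditional intervals) and as UMIs per barcode (blue squares); dashed lines mark the median of all genes on each scale. Klf2 and S1pr1 lie above 0 on both scales in all 3 panels, while S1pr4 and Cd69 drop to or below 0 per barcode outside the ILC2 gate.

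The suffixes differed as much as some gates did. In the ILC2 gate all 4 members were at least 2-fold lower under suffix 1 than under suffix 2, where 7.34% of 10228 genes were 2-fold lower. The log2 ratios of suffix 1 over suffix 2 were -1.76 for Klf2 (-1.87 to -1.64), -1.41 for S1pr1, -1.19 for S1pr4 and -1.24 for Cd69. Scaled per barcode instead they were -1.24, -0.89, -0.67 and -0.72 in the same order, so that only Klf2 passed 2-fold. In the NK/ILC1 gate Klf2 (-1.23), S1pr1 (-1.15) and Cd69 (-1.48) were 2-fold lower and S1pr4 was lower by less (-0.45), so 3 of 4 passed beside 15.3% of genes. In the progenitor gate 0 of 4 passed, beside 3.66% of genes. Klf2 (-0.65), S1pr4 (-0.57) and Cd69 (-0.65) were lower there under suffix 1, and the interval for S1pr1 included 0 (0.34, -0.14 to 0.80). In the gamma-delta T gate 4 of 4 passed on the 17 barcodes of suffix 1, beside 15.0% of genes, and 3 of 4 per barcode, where Cd69 stood at -0.45. What else separates the suffixes was not tested.

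Ordered by level over the 8 groups of gate and suffix with at least 50 barcodes, Klf2 was highest in Ly6a-high ILC2-gate barcodes of suffix 2 (563 CPM). It was followed by Ly6a-low ILC2 (505), NK/ILC1 (424) and gamma-delta T (332) barcodes of suffix 2, and then by NK/ILC1 (181) and Ly6a-low ILC2 (155) barcodes of suffix 1. The progenitor gate closed the order with 71.3 CPM under suffix 2 and 45.6 CPM under suffix 1. No neighbouring intervals overlapped in that order. S1pr1 began with the same pair, at 60.2 and 51.4 CPM, whose intervals overlapped. NK/ILC1 (27.6) and gamma-delta T (21.1) barcodes of suffix 2 and Ly6a-low ILC2 barcodes of suffix 1 (20.5) came next with overlapping intervals, then NK/ILC1 barcodes of suffix 1 (12.4), and the progenitor gate came last. S1pr4 ran from 116 CPM in Ly6a-high ILC2 barcodes of suffix 2 to 17.0 CPM in progenitors of suffix 1. Cd69 was the member whose top group stood clearest, at 330 CPM (316 to 345) in Ly6a-high ILC2 barcodes of suffix 2, ahead of NK/ILC1 barcodes of suffix 2 at 205 CPM (193 to 216) and Ly6a-low ILC2 barcodes of suffix 2 at 168 CPM (157 to 181).

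Within the ILC2 gate, Ly6a-high barcodes had more of every member than Ly6a-low barcodes, but within suffix 2, which held most of these barcodes, the difference was small for every member except Cd69. Pooled, Cd69 stood at 321 CPM in Ly6a-high and 140 CPM in Ly6a-low barcodes, a log2 ratio of 1.19 (1.09 to 1.29). Klf2 stood at 544 and 347 CPM (0.65), S1pr1 at 58.5 and 37.5 CPM (0.64) and S1pr4 at 113 and 77.5 CPM (0.54). Thus 1 of 4 members passed 2-fold, where 3.37% of 10228 genes were 2-fold higher. Suffix 2 made up 96.4% of Ly6a-high and 62.1% of Ly6a-low barcodes. Within suffix 2 the ratios were 0.16 for Klf2 (0.08 to 0.23), 0.23 for S1pr1 (-0.01 to 0.47), 0.20 for S1pr4 and 0.97 for Cd69 (0.85 to 1.09), the last just under 2-fold, so that 0 of 4 passed where 2.26% of genes did. The 18 Ly6a-high barcodes of suffix 1 gave 0.45 for Klf2, 0.52 for S1pr1, 0.15 for S1pr4 and 0.59 for Cd69. The pooled ratios of UMIs per barcode were 0.36, 0.35, 0.25 and 0.90 in the same order.

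The Ly6a split was made on raw counts, which rise with depth, so the members were also read over Ly6a counts after thinning. In suffix 2, Cd69 stood at 169 CPM in 216 barcodes without Ly6a, 238 CPM with 1 UMI, 297 CPM with 2 to 3, 396 CPM with 4 to 6 and 375 CPM in the 225 barcodes with 7 or more. The first 4 values climb and the last lies within the interval of the one before it. Klf2 over the same bins was at 503, 638, 558, 614 and 557 CPM, with no such climb. At the raw boundary itself, 32 barcodes with 5 Ly6a UMIs and 34 barcodes with 4 had 234 and 243 CPM of Cd69, and 441 and 616 CPM of Klf2, so neither gene was higher just inside the split.

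**Figure D3:**
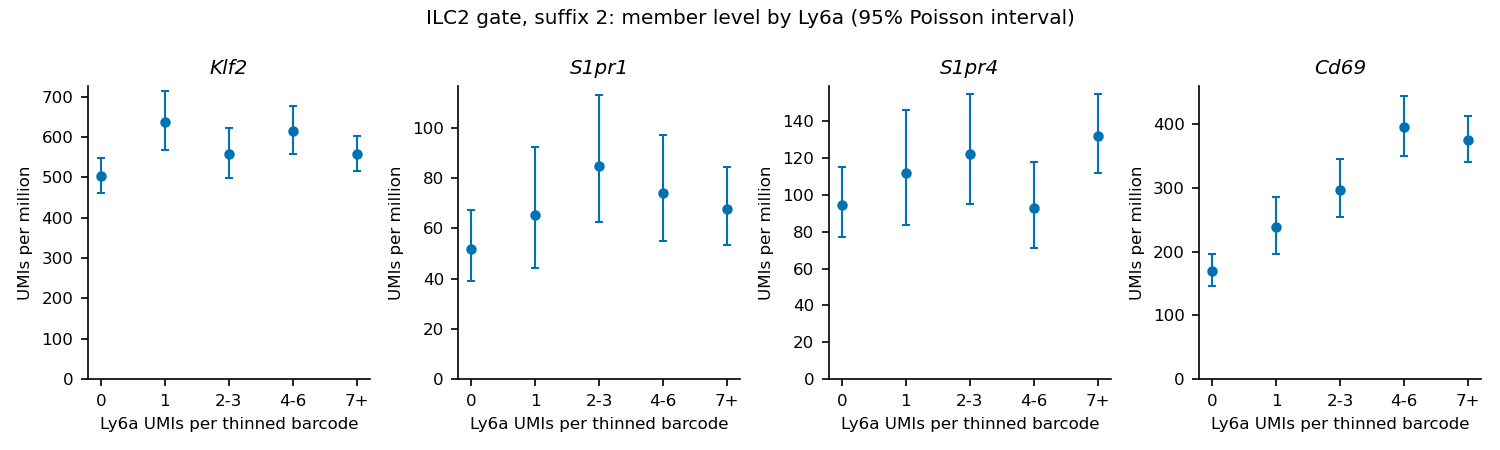
Level of each member (CPM, vertical axis) in ILC2-gate barcodes of suffix 2, by the number of Ly6a UMIs per barcode after thinning to 5000 UMIs (horizontal axis); bars are 95% Poisson intervals. Cd69 stands at 169 CPM without Ly6a and at 396 CPM with 4 to 6 UMIs, and Klf2 stays between 503 and 638 CPM.

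In the ILC2 gate the S1P receptors were detected more often in barcodes with Klf2 than in those without. Of thinned barcodes with a Klf2 UMI, 28.3% (25 to 31.8) had S1pr1, and of those without Klf2, 10.2% (7.02 to 14.3). The shares were 17.9% and 8.53% under suffix 1, with overlapping intervals, and 29.7% and 11.6% under suffix 2. S1pr4 was found in 42.6% of barcodes with Klf2 and 22.9% of those without. Its shares were 35.7% and 19.4% under suffix 1, also with overlapping intervals, and 43.5% and 25.6% under suffix 2. For Cd69 the pooled shares of 50.4% with Klf2 and 35.2% without came to 52.8% and 46.3% within suffix 2, where the intervals overlapped. S1pr1 and Cd69, opposed at the protein level, were not apart in RNA: 55.7% of S1pr1 barcodes had Cd69, against 43.0% of those without S1pr1, with 57.4% and 49.4% and overlapping intervals within suffix 2. In the NK/ILC1 gate S1pr1 was found in 10.0% of barcodes with Klf2 and 5.62% without, but with overlapping intervals within suffix 1 (7.0% and 5.01%) and suffix 2 (13.9% and 7.64%). In the progenitor gate the shares were 2.58% and 2.63%, and there only Cd69 went with Klf2 in the pool, at 33.0% and 21.3%. Its shares came to 26.8% and 17.3% within suffix 1 and 34.6% and 23.6% within suffix 2, with overlapping intervals in each. Thinning fixes the UMIs per barcode, and other properties that barcodes share were not tested.

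**Figure D4:**
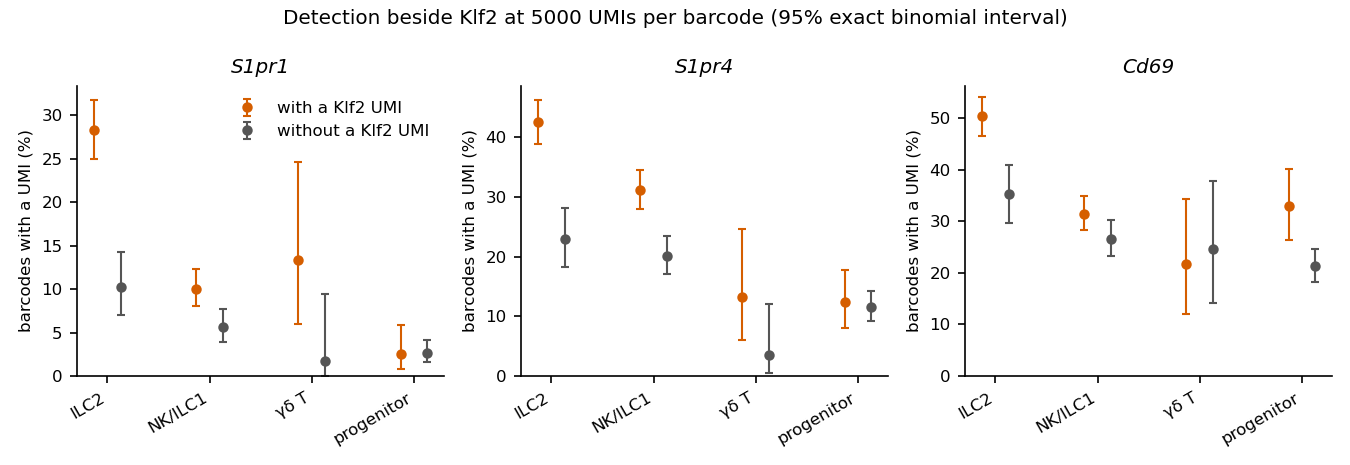
Percent of barcodes with a UMI of S1pr1, S1pr4 or Cd69 (vertical axes) among barcodes with (orange) and without (grey) a Klf2 UMI, in each gate after thinning to 5000 UMIs; bars are 95% exact binomial intervals. The ILC2 gate has the widest gap for S1pr1, 28.3% against 10.2%, and the progenitor gate has 2.58% against 2.63%.

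Cd69 was lower in proliferating ILC2-gate barcodes and, under suffix 1, higher in proliferating NK/ILC1-gate barcodes. Barcodes with a thinned UMI of Mki67 or Top2a, genes of dividing cells, made up 45.5% of the ILC2 gate and 45.4% of the NK/ILC1 gate. In the ILC2 gate Cd69 stood at 169 CPM in these barcodes and 329 CPM in the others, a log2 ratio of -0.96 (-1.14 to -0.79), with -0.85 within suffix 2 and -0.44 (-0.98 to 0.11) within suffix 1. In the NK/ILC1 gate of suffix 1 it stood at 105 CPM in barcodes with these UMIs and 38.0 CPM in the others, a ratio of 1.47 (1.11 to 1.83), and under suffix 2 the ratio was 0.17 (-0.07 to 0.42). Klf2 in the ILC2 gate was at 226 CPM in such barcodes of suffix 1 and 125 CPM in the others (0.85), against a ratio of -0.11 under suffix 2. The difference between gates was not tested.

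**Figure D5:**
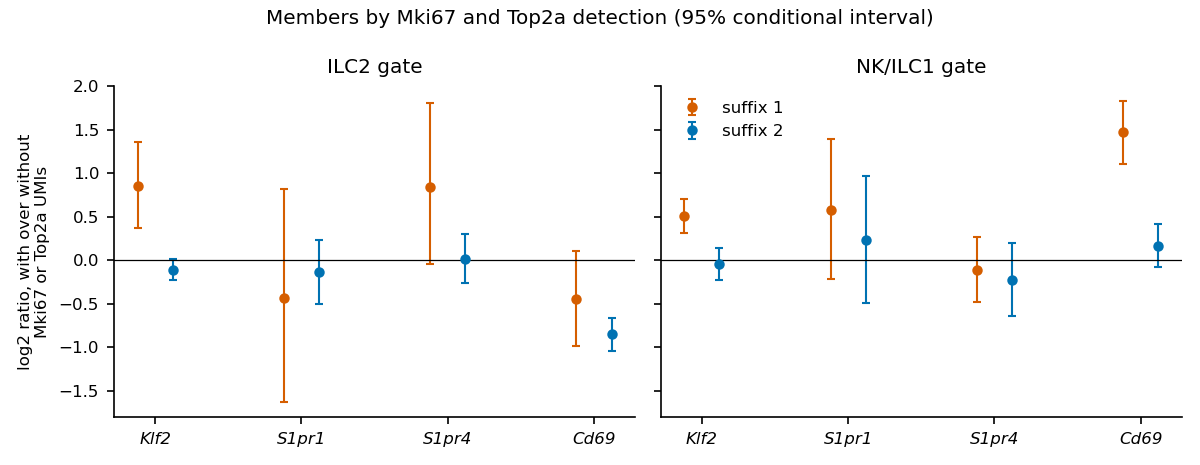
log2 ratio of each member in barcodes with over barcodes without a thinned UMI of Mki67 or Top2a, for the ILC2 and NK/ILC1 gates and both suffixes; bars are 95% conditional intervals. Cd69 lies at -0.85 for suffix 2 of the ILC2 gate and at 1.47 for suffix 1 of the NK/ILC1 gate.

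In that same NK/ILC1 group Cd69 was lower in barcodes with more transcripts of thymic epithelium. Of the 932 NK/ILC1-gate barcodes of suffix 1, 175 had at least 2 UMIs over Krt8, Krt18 and Prss16, against 5 of 500 under suffix 2. Cd69 was at 100 CPM in the 573 barcodes with none, 41.7 CPM in the 184 with 1, 27.9 CPM in the 135 with 2 to 3 and 21.5 CPM (11.7 to 36.0) in the 40 with 4 or more. Klf2 was at 192, 182, 145 and 166 CPM over the same groups and S1pr4 at 53.7, 50.4, 58.3 and 64.5 CPM, with no such slope. S1pr1 also had falling values, at 15.2 (12.5 to 18.4), 10.1 (6.39 to 15.1), 7.23 (3.95 to 12.1) and 4.60 CPM (0.949 to 13.5). Its neighbouring intervals overlapped, and the last group held 3 S1pr1 UMIs. The part of these transcripts in the Cd69 values was not tested. The whole epithelial list of 9 genes summed to 51.4 CPM in the ILC2 gate, 95.5 CPM in the NK/ILC1 gate, 122 CPM in the gamma-delta T gate and 66.1 CPM in the progenitor gate. Krt5, Psmb11 and Foxn1 were at 0 UMIs in the ILC2 gate. In the gamma-delta T gate Krt8, Krt5, Prss16, Psmb11 and Foxn1 were at 0 UMIs, and Epcam (70.0 CPM) and Ctsl (38.6 CPM) made up most of the sum. Without barcodes of at least 2 epithelial UMIs the Cd69 ratio of the NK/ILC1 gate over the progenitor gate was 0.92. Endothelial cells also use Klf2 and S1pr1. Their 8 markers summed to 26.4 CPM in the ILC2 gate, 47.2 CPM in the NK/ILC1 gate, 57.1 CPM in the gamma-delta T gate and 153 CPM in the progenitor gate, where Egfl7 (110 CPM) and Pecam1 (36.5 CPM) made up most of the sum. The defining markers Cdh5, Tek and Tie1 were at 0 UMIs in the ILC2 gate, and at 0.0651, 0.0326 and 0.261 CPM in the progenitor gate. The part of endothelial transcripts in the Klf2 and S1pr1 values was not tested.

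The factors of the KLF and FOXO list, which act beside or upstream of Klf2, were mixed. Of 8 measured genes, 4 were 2-fold higher and 1 was 2-fold lower in the ILC2 gate than in the progenitor gate, with a median log2 ratio of 0.97, beside 13.6% and 16.6% of all genes. Foxo1, an activator of Klf2, stood at 36.7 CPM in the ILC2 gate and 3.16 CPM in the progenitor gate, a ratio of 3.54 (3.23 to 3.87). It was at 17.5 CPM in the NK/ILC1 gate and 29.6 CPM in the gamma-delta T gate. The gamma-delta T and progenitor gates had 3.2 and 3.31 CPM of Foxo1 under suffix 1, and 39.3 and 3.09 CPM under suffix 2. In the ILC2 gate Klf7, Klf10 and Klf4 were the other genes past 2-fold. Foxo3 was the lower one, at 8.61 CPM in the ILC2 gate and 21.5 CPM in the progenitor gate. As UMIs per barcode 2 were higher and 1 lower, beside a median of all genes at -1.32. Klf3, a repressor of the same family, split the gates another way. It was at 78.1 CPM in the gamma-delta T gate, 41.5 CPM in the ILC2 gate, 2.50 CPM in the NK/ILC1 gate and 21.7 CPM in the progenitor gate. The ILC2 gate was above the progenitor gate in Klf3 under suffix 2 (log2 ratio 1.19) and below it under suffix 1 (-1.43). As pooled UMIs per barcode, the Klf3 ratio of the ILC2 gate over the progenitor gate was -0.27. Within the ILC2 gate of suffix 2 Klf3 was at 69.6 CPM in Ly6a-high and 35.2 CPM in Ly6a-low barcodes.

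Of the other S1P receptors, S1pr5, which guides NK cell exit in adult tissues, had 0 UMIs in every gate, which allows up to 0.163 CPM in the NK/ILC1 gate at 3 counts. S1pr2, a receptor that restrains migration, was low throughout, at 6.72 CPM in the ILC2 gate, 2.94 CPM in the NK/ILC1 gate, 7.30 CPM in the gamma-delta T gate and 5.50 CPM in the progenitor gate. S1pr3 had 2 UMIs in the ILC2 gate and 144 in the progenitor gate (0.131 and 4.69 CPM), a log2 ratio of -5.17 (-8.23 to -3.29). Among 9 measured genes of S1P synthesis, transport and breakdown, 2 were 2-fold higher and 2 were 2-fold lower in the ILC2 gate, with a median of 0.06, close to the all-gene shares of 13.6% and 16.6%. Per barcode 0 were higher and 5 lower, where the median of all genes was itself more than 2-fold lower, at -1.32. Spns2, the S1P exporter, was highest in progenitors, with 2 UMIs in the ILC2 gate and 1137 in the progenitor gate (0.131 and 37.0 CPM), a ratio of -8.15 (-11.20 to -6.29). It was at 37.1 CPM under suffix 1 and 37.0 CPM under suffix 2 in progenitors. Sgpl1, the lyase that destroys S1P, went the other way in CPM, at 10.0 CPM in the ILC2 gate and 3.03 CPM in the progenitor gate (1.73, 1.35 to 2.12), and at 0.53 per barcode.

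Of the genes that act below the receptors, 4 of 18 signalling and motility genes were 2-fold higher and 1 was 2-fold lower in the ILC2 gate, with a median of 0.59, beside 13.6% and 16.6% of all genes. Arhgef1, which acts below G proteins of the receptors, was at 170 CPM in the ILC2 gate and 61.6 CPM in the progenitor gate, and Dock2, an activator of RAC in migrating lymphocytes, was at 156 and 57.9 CPM. Gna13 and Arrb1 were also higher and Gna12 was lower. In the pooled NK/ILC1 gate 0 of 18 passed 2-fold in either direction, beside 11.0% and 18.4% of all genes. Within suffix 2, Arhgef1 (1.26), Cdc42 (1.18), Dock2 (1.13), Dock8 (1.08) and Rassf5 (1.07) were more than 2-fold higher, where 13.6% of genes were. Under suffix 1 the same genes stood at 0.5, 0.8, 0.31, 0.1 and 0.22. Pooled per barcode, 0 were higher and 1 was lower in the ILC2 gate, and 0 were higher and 8 lower in the NK/ILC1 gate. The medians of all genes on that scale were themselves more than 2-fold lower, at -1.32 and -1.70. These lower counts therefore do not set the list apart.

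Genes listed as KLF2-dependent homing genes of T cells differed among themselves. Itgb7, an integrin chain of gut homing, was at 350 CPM in the ILC2 gate and 74.4 CPM in the progenitor gate (log2 ratio 2.23), and Il7r, the IL-7 receptor, was at 558 and 29.2 CPM (4.25). As UMIs per barcode both kept their direction, at 1.03 for Itgb7 and 3.05 for Il7r. Il7r, a cytokine receptor gene, is also on the ILC2 marker list used above to check the gate. Cd44, an adhesion receptor, was at 81.4 CPM in the ILC2 gate and 42.6 CPM in the progenitor gate, under 2-fold. Ccr7, a chemokine receptor of lymph node homing, was highest in the gamma-delta T gate, with 17.2 CPM against 1.20 CPM in the progenitor gate (3.83, 3.15 to 4.52), and it stood at 1.24 CPM in the ILC2 gate.

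Genes of tissue residency other than Cd69 were mostly higher in the ILC2 and NK/ILC1 gates than in the progenitor gate. Leaving out Xcl1, which is a gate gene, 6 of 7 measured genes were 2-fold higher in the ILC2 gate and 0 lower, with a median of 3.97, beside 13.6% and 16.6% of all genes. In the NK/ILC1 gate 7 of 8 were higher and 0 lower, with a median of 4.99, beside 11.0% and 18.4% of all genes. In the gamma-delta T gate 2 of 5 were higher and 1 was lower, with a median of 0.88, beside 9.28% and 13.0% of all genes. Per barcode the counts were 6 and 1 in the ILC2 gate, 6 and 0 in the NK/ILC1 gate and 2 and 2 in the gamma-delta T gate. The medians of all genes per barcode were -1.32, -1.70 and -0.84 in the same order. Cxcr6 was at 456 CPM in the ILC2 gate and 1.43 CPM in the progenitor gate, and Itgae, the CD103 integrin chain, was at 154 and 1.01 CPM. Rgs1, which damps chemoattractant receptor signals, was at 613 CPM in the ILC2 gate, 719 CPM in the NK/ILC1 gate, 65.7 CPM in the gamma-delta T gate and 98.2 CPM in the progenitor gate. This list was chosen with earlier results of these data known. Immediate early genes are switched on within minutes of a stimulus or of handling. The list of 19 such genes also held the heat shock genes Hspa1a and Hspa1b. By CPM 12 of the 19 were 2-fold higher and 4 lower in the ILC2 gate (median 1.52), beside 13.6% and 16.6% of all genes. Per barcode 7 were higher and 5 lower, beside a median of all genes at -1.32. Fos was at 469 CPM in the ILC2 gate and 98.2 CPM in the progenitor gate. Both heat shock genes were among the 4 lower by CPM, with Hspa1a at 53.8 and 200 CPM. The part of the listed genes in the Cd69 and Klf2 values was not tested. Of 12 cell cycle genes, 0 were 2-fold higher and 1 was lower, beside the same shares of all genes. Per barcode 0 were higher and 7 lower, beside the same median of all genes at -1.32.

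Over the same 8 groups, the gene most like S1pr1 among 9616 was Sgpl1, with a Pearson correlation of log2(CPM + 1) of 0.989, followed by Prkx, Stk24, Ccdc88b and Acsbg1 (0.984 to 0.981). Sgpl1 was at 11.6 CPM in Ly6a-high ILC2 barcodes of suffix 2 and 2.81 CPM in progenitors of suffix 1. For Klf2 the nearest genes were Mindy2, Tmem50a, Cc2d1a, Phf1 and Agtpbp1 (0.985 to 0.983), for S1pr4 Espn, Rarg, Mthfsl, Tnfrsf18 and G0s2 (0.978 to 0.976), and for Cd69 Pacs1, Tmem71, Rapgef6, Abcg3 and 0610030E20Rik (0.978 to 0.964). The members correlated with each other at 0.882 to 0.937, and S1pr1 with Foxo1 at 0.940. The 8 groups share 2 suffixes and 5 gates, so these values describe the groups and are not tests.

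Within the ILC2 gate, barcodes with and without each member differed in other genes too. Those with Klf2 had more Klf3 (65.3 and 18.4 CPM with and without Klf2), S1pr1 (72.4 and 22.5), Ly6c1 and Ripor2. They had less Gzma, a granzyme gene (42.4 and 236 CPM), and less Fabp5, a fatty acid carrier (127 and 368 CPM), along with Homer2, Cd160 and Ung. Within suffix 2 the log2 ratios were 1.48 for Klf3, -0.84 for Gzma and -1.35 for Fabp5, and that for Homer2 had an interval that included 0. Within suffix 1 they were 1.20 for Klf3 (-0.45 to 2.98), -1.58 for Gzma and -0.39 for Fabp5, and Cd160 was at 305 CPM with Klf2 and 307 CPM without. Barcodes with S1pr1 had more Stmn2, Klf3, Acsbg1, Sgk1 and Ly6c1 and less Gzma, Fabp5, Lig1 and Cdca7, with Lig1, a DNA ligase of replication, at 45.2 and 103 CPM. Barcodes with S1pr4 had more Sgk1, Ly6c1, Ifi27l2a and S1pr1 and less Ung, Bri3bp, Cxcl10 and Rsrc1, and these kept their direction within suffix 2. Gzma did not: it was at 65.8 CPM with S1pr4 and 119 CPM without in the pool, and at 37.1 and 27.0 CPM within suffix 2 (0.46, -0.08 to 0.99). Within suffix 1 Ifi27l2a was at 0 CPM with S1pr4 and 1.27 CPM without. Hbb-bs was also on 3 of these lists, but 1903 of its 1951 UMIs in the gate came from 2 barcodes.

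In barcodes with Cd69 the genes with the highest ratios were Cxcl2, Cxcl10, Slfn5, Egr1 and Gadd45b. Cxcl2 was at 58.4 CPM with Cd69 and 16.3 CPM without, Cxcl10, an interferon-induced chemokine, at 105 and 34.0 CPM, and Egr1, an immediate early factor, at 64.9 and 27.0 CPM. Within suffix 2 these ratios were 1.57 for Cxcl2, 1.36 for Cxcl10 and 1.31 for Egr1, and within suffix 1 they were 2.56, 2.8 and 1.29, where the interval for Slfn5 included 0 (-0.98 to 5.72). Ccl5, Fcer1g, Ifitm1, Fabp5 and Gzma were lower with Cd69 in the pool, while within suffix 1 Fcer1g was at 215 CPM with Cd69 and 220.0 CPM without. Ifitm1 was at 201 and 618 CPM pooled, 18.8 and 77.5 CPM within suffix 2, and 1567 and 1918 CPM within suffix 1.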

How the data were processed

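Sorted DN1 cells of embryonic thymus were profiled with 10x Chromium 3' v3 chemistry, per the labels' protocols. The authors deposited raw counts of UMIs for each gene in each barcode, without normalization. The submitters' processing notes name Cell Ranger 3.0.2, STAR and the GRCm38 build. The table has 22032 genes and 6057 barcodes in 1 pooled file, of which 0 barcode columns are tied to a library by a label, so planned comparisons of the labelled stages were not run.

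A barcode was kept if at least 500 genes were detected and mitochondrial UMIs were at most 10%, which dropped 35 of suffix 1 and 507 of suffix 2. Next to go were doublets called by Scrublet per suffix in scanpy 1.11.5 (10, which is 0.466%, and 93, which is 2.761%). The low rate in suffix 1 leaves doublets possible there. Counts were summed per gate and suffix and scaled to CPM. Levels have exact Poisson intervals, shares Clopper-Pearson intervals and ratios conditional exact intervals, all 95%, computed with scipy 1.17.1, numpy 2.4.6 and pandas 2.3.3 in Python 3.11.15. The ratio intervals were tested on simulated Poisson counts, which hold no variation between barcodes. PCR duplicates are collapsed by UMI, and intervals cover counting error only. Without replicate libraries there are no p-values, and a gene counts as called at 2-fold with at least 20 UMIs in both groups together. Shares used barcodes thinned to 5000 UMIs.

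The members, gates and gene lists were chosen with earlier results of these data known. Named genes are the members, genes of the 8 pathway and 13 marker lists, the 5 genes nearest each member by correlation over groups of at least 50 barcodes (genes of at least 200 UMIs, pseudocount 1 CPM), and the 5 highest and 5 lowest genes of at least 50 CPM in ILC2-gate barcodes with over without a member. Promoter windows are from RefSeq. A gene of the homing list is not reported here, and counts over that list are left out. Alternatives covered gates, filters, doublets, scaling, thinning, epithelial and dividing barcodes, suffixes and the Ly6a split. Use of UMIs per barcode, the stricter epithelial limit, the removal of barcode sequences found under both suffixes and the thinned Ly6a split within suffix 2 were chosen after seeing the data.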

Additional observations from a re-analysis of the deposited data

Results flagged for a closer look

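In the gamma-delta T gate the members moved in opposite directions from the progenitor gate under the suffixes, which drew attention to them. The log2 CPM ratio of the gamma-delta T gate over the progenitor gate was -1.51 under suffix 1 and 2.22 under suffix 2 for Klf2, and -1.96 under suffix 1 (1 UMI, -7.28 to 0.58) and 2.10 under suffix 2 for S1pr1. It was -1.41 under suffix 1 and 0.47 under suffix 2 for S1pr4, and -0.37 under suffix 1 (-1.03 to 0.22) and 0.54 under suffix 2 for Cd69. The gate held 17 barcodes under suffix 1, with a median of 38572 UMIs, and 100 under suffix 2, with a median of 15649.5 UMIs. The difference between the suffixes was not tested.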

How the results depend on the processing

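The log2 ratios of the 4 members were recomputed under up to 21 settings, which gave 288 values, of which 277 kept their direction. The 11 others were 9 in the gamma-delta T gate and 2 in the NK/ILC1 gate. As UMIs per barcode instead of CPM, the count of members at least 2-fold apart was 2 in the ILC2 gate, 0 in the NK/ILC1 gate and 1 in the gamma-delta T gate over the progenitor gate, and 0 for Ly6a-high over Ly6a-low, and S1pr4 in the NK/ILC1 gate reversed to -0.01. With barcodes of suffix 1 only, the gamma-delta T gate gave -1.51 for Klf2 and -1.96 for S1pr1. The count for Ly6a-high over Ly6a-low was 0 instead of 1 with gates at 1 UMI, without dividing barcodes, within either suffix and with the split at 10 UMIs, and Cd69 alone decided it, at 0.97, 0.96, 0.59 under suffix 1, 0.97 under suffix 2 and 0.97. In the gamma-delta T gate Cd69 came to -0.15 with gates at 1 UMI and S1pr4 to -0.44 after thinning, and without dividing barcodes the ratios were 2.30 for S1pr1, -0.81 for S1pr4 and 1.32 for Cd69. The causes of these changes were not tested. Depth limits S1pr1 most, with 37 UMIs in the gamma-delta T gate and 164 in the progenitor gate. No paired analysis was possible because each labelled library is single and no barcode column is tied to one.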
